A study of Mus musculus with 32 samples.

Results

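Dorsal back skin of HDM mice was compared with dorsal back skin of sham mice. The members are the 16 arrays whose titles name back skin, 8 from HDM and 8 from sham mice, of 32 arrays in the series. The other 16 arrays hold ear tissue of the same 2 agents and entered the fit. All mice were NC/Nga, an inbred strain that is prone to dermatitis, and skin was taken with punches of 8 mm. The sham back skin group carried the agent label Sham, and the HDM back skin group carried the agent label HDM in a series titled for HDM-induced dermatitis. The labels do not spell out HDM, do not say what sham mice received, and give neither age nor sex. Nothing says that mice with the same number in back skin and ear were 1 animal.

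Skin is made of an epidermis of keratinocytes, hair follicles with sebaceous glands, a collagen-rich dermis, a layer of fat and a thin muscle sheet. Keratinocytes leave the basal layer, build a cornified envelope from proline-rich and late envelope proteins, fill the space between cells with lipid, and are shed when kallikrein proteases cut their junctions. Inflamed epidermis thickens, switches on stress keratins and antimicrobial proteins, and alters lipid synthesis, while hair follicles pass through growth and rest on their own cycle. A punch holds all of these layers, so a lower value can come from fewer cells of a type or from less RNA per cell, and these cannot be told apart here.

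Values are log2 expression levels, written as the lowest and highest of the 8 mice of a group with the median. A difference is HDM minus sham ± its standard error, and a log2 difference of 1 is a doubling. Each adjusted p comes from limma with Benjamini-Hochberg adjustment over 22206 rows, with 8 mice in each group, and "rose" and "fell" are used where it was under 0.05. The standard errors and p-values rest on a spread between mice that was pooled over the back skin and ear arrays. The standard errors can therefore be larger or smaller than the back skin values alone would give, and the p-values change with them. Of all 22206 rows, 14.7% changed, 1372 upward (6.18%) and 1901 downward (8.56%), and of 19505 named genes 15.3% changed, 1237 upward (6.34%) and 1750 downward (8.97%). The median difference over all rows was 0.0063. When all arrays were set to an equal median it was 0.13, and the same test then called 2433 rows higher (11%) and 1392 lower (6.27%), so that the share of calls that were higher went from 41.9% to 63.6%. All 1372 rises and 1392 of the falls were shared by both scalings. The balance of rises against falls therefore depends on the scaling, and counts for gene groups are read against these shares.

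The labelled tissue matched most of its markers. Markers of keratinocytes, hair follicle, fibroblasts, adipocytes, skeletal muscle and endothelium were above the negative control level. The cartilage genes Col2a1, Matn1 and Comp and the B cell gene Ms4a1 were below it on all 16 arrays. The remaining cartilage marker, Acan, was above this level on 5 sham and 6 HDM back skin arrays. Between 56.4% and 62.3% of rows lay above that level on each array. On the first principal component, which held 32.5% of the variance, HDM arrays lay between 32.8 and 53.9 and sham arrays between -66.0 and -32.3. The second held 21.9%, and there sham mouse 1 at 99.6 and sham mouse 2 at 59.4 stood apart from all other arrays. The same 2 arrays had the lowest mean over 35 measured genes of growing hair, at 6.28 and 9.67, against 10.4 to 13.6 in sham mice 3 to 8 and 10.9 to 12.5 in HDM mice.

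**Figure D1:**
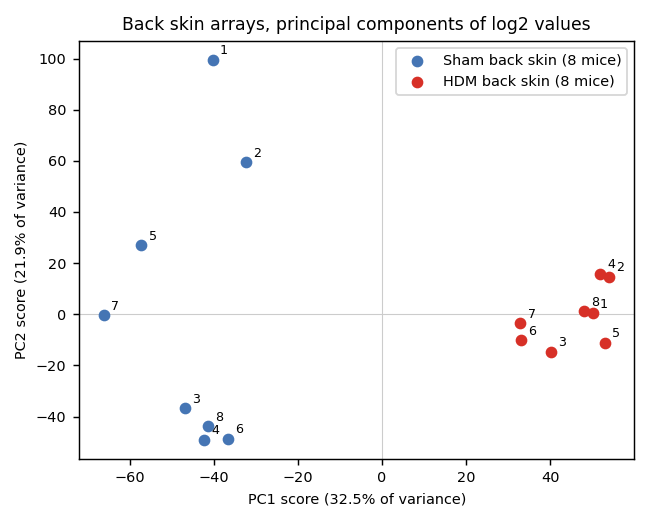
Each point is 1 back skin array, numbered by mouse, on the first (horizontal) and second (vertical) principal component scores of the log2 values. The 8 HDM arrays lie between 32.8 and 53.9 on the first component and the 8 sham arrays between -66.0 and -32.3, while sham mice 1 and 2 lie highest on the second.

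Each count for a gene list or family below is therefore followed in parentheses by the counts without sham mice 1 and 2. Leaving them out gave 1340 higher rows (6.03%) and 1758 lower rows (7.92%), or 14% in all. Of the main calls, 1107 rises and 1401 falls were called both ways, and 0 changed direction. Among changes of at least 1 on the log2 scale, 437 of 456 rises and 701 of 766 falls stayed called. The genes named below were chosen by a stated rule, and members of families with near-identical sequences, such as Sprr2, Stfa, Serpinb3 and Lce3, can be read by common probes, which leaves the value of any one member uncertain.

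The largest test statistic of all named genes belonged to a retinoic acid enzyme. Aldh1a3, which makes retinoic acid from retinaldehyde, lay between 6.91 and 8.44 (median 7.98) in sham mice and between 11.50 and 12.37 (median 11.95) in HDM mice. The difference was 4.08 ± 0.21 (adjusted p = 7.37e-15). Crabp2, whose product carries retinoic acid to its nuclear receptors, lay between 11.93 and 12.62 (median 12.28) in sham and between 14.41 and 15.33 (median 14.94) in HDM mice and rose by 2.56 ± 0.17 (adjusted p = 6.12e-12). The 10 strongest rises and falls were taken from genes whose groups do not overlap, so that the gap between the groups in Aldh1a3 and the genes that follow was fixed by that choice. Of all rows, 924 (4.16%) had no overlap between the 8 sham and 8 HDM arrays, 406 of them higher (1.83%) and 518 lower (2.33%).

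Other genes among the 10 strongest rises by the test statistic encode proteins of several kinds. Erich3, a glutamate-rich protein gene, lay between 3.77 and 5.28 (median 4.28) in sham mice, where 2 of 8 arrays were above background, and between 7.14 and 9.12 (median 8.19) in HDM mice. It rose by 3.90 ± 0.27 (adjusted p = 6.12e-12), or 3.5 with values under background raised to it. For other genes at background in most mice of 1 group, that second value is printed as the floored difference. Ptprz1, a receptor tyrosine phosphatase gene, lay between 7.47 and 8.87 (median 8.05) and between 10.55 and 11.82 (median 11.02) and rose by 3.08 ± 0.25 (adjusted p = 3.33e-10). Hpgd, whose product inactivates prostaglandins, lay between 12.18 and 13.25 (median 12.46) and between 14.30 and 15.82 (median 15.00) and rose by 2.43 ± 0.21 (adjusted p = 1.11e-09). Cdhr1, a cadherin-related gene known from photoreceptors, was below background on all sham arrays and above it on all HDM arrays, at least 4.54-fold higher. Defb3, a beta-defensin gene, had a sham range between 6.75 and 11.56 (median 7.62) against an HDM range between 14.69 and 16.61 (median 15.84), and it rose by 7.30 ± 0.69 (adjusted p = 7.24e-09), with a wide spread among sham mice. The remaining 3 of the 10 were the kallikreins Klk14, Klk6 and Klk7, described with their neighbours below.

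Among the 10 strongest falls by the same measure were enzymes of lipid and amino acid metabolism and clade A and B serpins. Cyp2b23, a cytochrome P450 gene, lay between 9.17 and 11.06 (median 9.85) in sham and between 4.32 and 5.59 (median 4.77) in HDM mice, where 2 of 8 arrays were above background, and fell by 5.12 ± 0.46 (adjusted p = 3.06e-09, floored difference -4.98). Cers5, a ceramide synthase gene, lay between 12.09 and 14.23 (median 13.40) and between 10.12 and 10.78 (median 10.41) and fell by 2.88 ± 0.27 (adjusted p = 4.33e-09). Oat, the mitochondrial ornithine aminotransferase, lay between 12.21 and 13.17 (median 12.61) and between 10.88 and 11.87 (median 11.15) and fell by 1.47 ± 0.14 (adjusted p = 7.53e-09), a smaller change with little spread in both groups. Il20ra, a receptor subunit for cytokines of the IL-20 subfamily, lay between 6.66 and 7.99 (median 7.40) in sham mice and was above background in 2 of 8 HDM mice, and it fell by 3.06 ± 0.29 (adjusted p = 7.71e-09, floored difference -2.54). Crygn, a crystallin gene, lay between 8.18 and 10.44 (median 9.13) and between 4.17 and 6.43 (median 5.47) and fell by 4.13 ± 0.32, with 5 of 8 HDM arrays above background. Serpina3j, a clade A serpin gene, was below background on all HDM arrays and at least 22.5-fold lower. Serpinb6d, a clade B serpin gene, fell by 7.00 ± 0.55 (adjusted p = 1.29e-10). The keratin Krt77, the cytochrome P450 Cyp2g1 and the adipocyte gene Nnat complete the 10 and are described below.

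**Figure D2:**
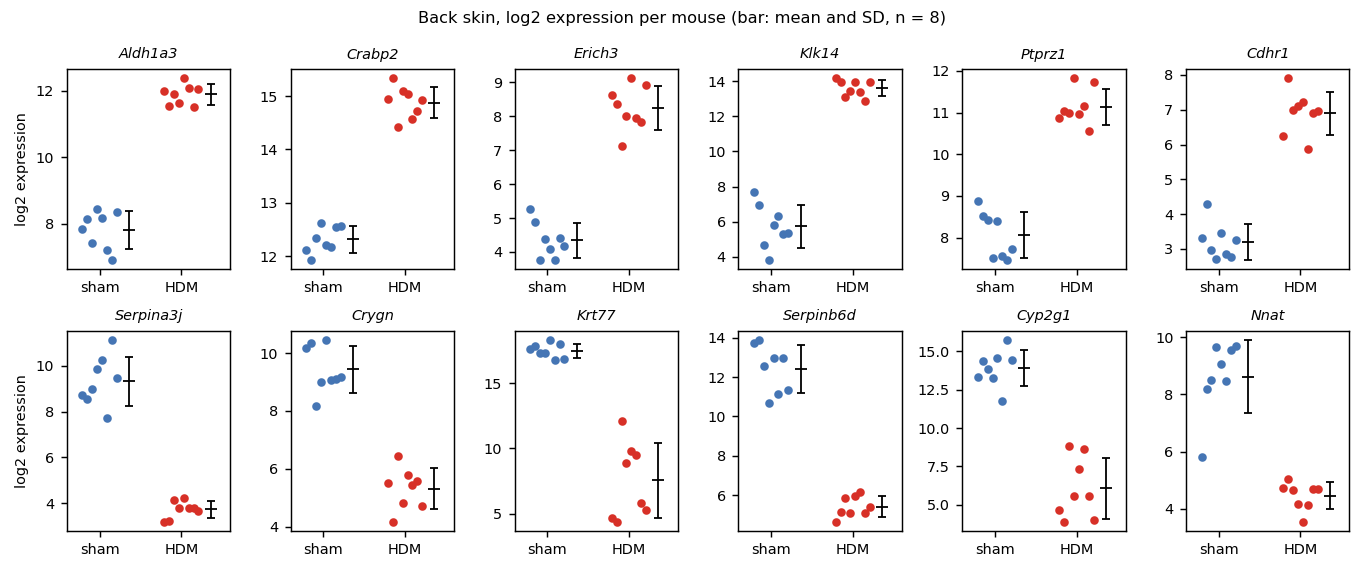
Each panel shows the log2 expression (vertical axis) of 1 gene in the 8 sham and 8 HDM back skin mice, 1 point per mouse, with the mean and SD as a bar. The 12 genes were chosen from those whose groups do not overlap, so the gap in each panel follows from the choice. Aldh1a3 sham mice end at 8.44 and HDM mice start at 11.50, and Krt77 spreads from 4.39 to 12.09 in HDM mice.

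Retinoid genes changed in both directions. Retinol is stored as an ester, oxidised to retinaldehyde and then to retinoic acid, and broken down by CYP26 enzymes. Of 28 measured genes of this pathway, 7 rose and 8 fell (7 and 7), or 8 and 8 with equal array medians, and the median difference was -0.13. The rises held the cellular carriers of retinoic acid, Crabp1 (2.18 ± 0.39, adjusted p = 1.75e-04) and Crabp2, the retinol carrier Rbp2, the esterifying enzyme Lrat (2.21 ± 0.33, adjusted p = 1.57e-05), and the oxidising enzymes Rdh10 (1.16 ± 0.18) and Aldh1a2 (1.15 ± 0.36) beside Aldh1a3. Rbp2 lay between 5.82 and 7.71 (median 5.96) in sham and between 9.07 and 10.26 (median 9.57) in HDM mice and rose by 3.36 ± 0.40 (adjusted p = 3.71e-07). The falls held Aldh1a1 (-1.31 ± 0.39), the dehydrogenases Rdh11 (-1.89 ± 0.31, adjusted p = 5.49e-05), Sdr16c6 (-1.61 ± 0.32, adjusted p = 6.99e-04), Rdh16 (-1.14 ± 0.32) and Dhrs3 (-1.0 ± 0.24), the plasma carrier Rbp4 (-1.21 ± 0.35), the degrading enzyme Cyp26b1 (-1.59 ± 0.33) and the receptor Rxra (-0.80 ± 0.22). All 15 calls are listed here, so that Lrat, Rdh10, Aldh1a2, Aldh1a1, Rdh16, Dhrs3, Rbp4, Cyp26b1 and Rxra were named for completeness after their values were seen. Aldh1a2 and Rdh16 were not called without sham mice 1 and 2 (0.65 with adjusted p = 0.189 and -0.75 with adjusted p = 0.0951). Of 21 measured aldehyde dehydrogenases in all, 4 rose and 6 fell (3 and 6), or 6 and 6 with equal array medians. Aldh1l2, a mitochondrial folate enzyme, rose by 1.5 ± 0.29 (adjusted p = 5.26e-04, floored difference 0.98), while Aldh3a1, which is abundant in cornea, fell by 2.95 ± 0.49 (adjusted p = 5.97e-05) and Aldh1a7 changed by -1.87 ± 0.38 (adjusted p = 8.52e-04, floored difference -1.50).

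Genes that changed in the same direction lay side by side on several chromosomes. Of 19502 genes placed in the order of the reference annotation, 68 lay in 13 runs of at least 4 neighbours that were all called in 1 direction, 46 of them higher in 8 runs and 22 lower in 5 runs. The count of runs was 12 without sham mice 1 and 2. Of all named genes 6.34% were higher and 8.97% lower, and how many runs these shares alone would give was not computed. Neighbours of near-identical sequence that are read by common probes are not separate calls. The promoters of 4 genes are shown as examples that follow no single rule. Sprr2d had the largest rise in its run, Il1f8 began its run, and Klk14 did both. Erich3 rose from near background outside any run. Each sequence is the 250 bases before the start site in the RefSeq table for GRCm38.p6, on the plus strand, with the AP-1 motif TGAGTCA or its reverse complement TGACTCA in capitals. They lie at chr3:92338890-92339139, chr2:24152922-24153171, chr3:154710883-154711132 and chr7:43690168-43690417.
Sprr2d: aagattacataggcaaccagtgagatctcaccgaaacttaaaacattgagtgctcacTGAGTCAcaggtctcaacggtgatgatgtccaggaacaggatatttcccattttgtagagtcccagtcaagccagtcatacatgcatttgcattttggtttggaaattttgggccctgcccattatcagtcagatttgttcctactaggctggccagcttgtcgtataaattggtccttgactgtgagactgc
Il1f8: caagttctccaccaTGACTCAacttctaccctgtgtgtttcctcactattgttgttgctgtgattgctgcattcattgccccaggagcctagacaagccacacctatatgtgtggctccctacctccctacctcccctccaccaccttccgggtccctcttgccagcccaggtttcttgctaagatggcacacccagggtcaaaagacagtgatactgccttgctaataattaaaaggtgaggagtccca
Erich3: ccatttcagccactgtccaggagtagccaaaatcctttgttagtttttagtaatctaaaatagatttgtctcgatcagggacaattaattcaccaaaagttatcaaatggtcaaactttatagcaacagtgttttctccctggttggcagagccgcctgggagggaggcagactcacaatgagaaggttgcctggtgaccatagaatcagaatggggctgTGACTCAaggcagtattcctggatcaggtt
Klk14: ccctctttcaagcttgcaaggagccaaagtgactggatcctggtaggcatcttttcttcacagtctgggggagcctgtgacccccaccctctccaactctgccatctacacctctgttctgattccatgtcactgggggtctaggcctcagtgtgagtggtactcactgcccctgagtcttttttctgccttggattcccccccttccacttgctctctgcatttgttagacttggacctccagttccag
Counted from the start site, the motif begins at -193 in Sprr2d, at -236 in Il1f8 and at -30 in Erich3, and these letters are not in the Klk14 window.

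AP-1 is a family of dimeric transcription factors that bind this motif and act in keratinocyte differentiation and stress. Both strands of the windows, from 250 bases before to 50 after the start, were searched for TGAGTCA, and 15691 of 19505 measured genes had a window. The motif was in 5.2% of all 32851 windows. A gene can have several windows and was counted once if any of them held the motif, so shares of genes are not comparable with shares of windows. By gene, the motif was found for 7.61% of genes that rose (75 of 985), 6.74% of genes that fell (94 of 1394) and 5.23% of genes not called. Among changes of at least 1 the shares were 10% for rises (32 of 320) and 8.66% for falls (48 of 554). The CRE motif TGACGTCA, which contains neither of those 2 strings, was in 1.79% of all windows. By gene, it was found for 2.74% of genes that rose, 2.58% of genes that fell and 2.62% of genes not called. A match is a description of letters and not a bound site.

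The longest runs were 10 genes each, the small proline-rich genes from Sprr2b to Sprr1b on chromosome 3 and the kallikreins from Klk14 to Klk5 on chromosome 7. Small proline-rich proteins are cross-linked into the cornified envelope, and all 10 of the run had no overlap between the groups, with differences from 2.81 to 6.54 and a median of 5.04. Sprr2d lay between 6.25 and 12.75 (median 8.25) in sham and between 14.76 and 16.15 (median 15.82) in HDM mice, with the highest sham values in the low-hair sham mice 1 and 2, at 12.75 and 12.10. Its difference was 6.54 ± 0.75 with all mice and 7.65 without sham mice 1 and 2. The smallest of these rises, in Sprr2k, was 2.81 ± 0.68 (adjusted p = 0.00423, floored difference 1.97).

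Kallikrein-related peptidases are secreted serine proteases that shed the cornified layer and activate one another. Klk14, a trypsin-like member, lay between 3.82 and 7.66 (median 5.57) in sham mice and between 12.90 and 14.17 (median 13.71) in HDM mice, and rose by 7.89 ± 0.62 (adjusted p = 1.29e-10). Klk6 lay between 13.31 and 14.71 (median 13.93) and between 18.44 and 18.80 (median 18.62) and rose by 4.57 ± 0.37, with the HDM mice close together. Klk7, the chymotrypsin-like enzyme of the cornified layer, lay between 16.32 and 17.05 (median 16.86) in sham mice and rose by 1.68 ± 0.16 (adjusted p = 4.33e-09). The smallest rises were in Klk5 (0.96 ± 0.20, adjusted p = 8.29e-04) and Klk11 (1.15 ± 0.36, adjusted p = 0.0292), where the groups overlapped. Klk12 was below background in all sham mice and at least 3.01-fold higher. Of 25 measured kallikreins in the genome, 10 rose and 1 fell (10 and 1).

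Of the other runs of rises, 6 late cornified envelope genes from Lce3a to Lce3f rose by 2.84 to 4.41, with no overlap in any of the 6. Lce3c lay between 6.73 and 9.77 (median 7.45) in sham and between 11.73 and 12.83 (median 12.22) in HDM mice, while Lce3b, Lce3e and Lce3f were below background on all sham arrays and at least 4.37-fold, 5.29-fold and 2.22-fold higher. On chromosome 16 there were 2 runs of stefin A genes, inhibitors of cysteine proteases, with Cstdc5 between 10.86 and 16.62 (median 13.40) in sham and between 18.13 and 19.30 (median 18.69) in HDM mice, a difference of 5.12 ± 0.78, and Csta3 at 5.88 ± 0.77. The smallest member, Csta1, rose by 2.29 ± 0.37 (adjusted p = 5.49e-05). The clade B serpins Serpinb3a, Serpinb3d, Serpinb3c and Serpinb11 on chromosome 1 rose, Serpinb3a from between 7.23 and 13.75 (median 10.19) to between 14.90 and 16.54 (median 15.67), a difference of 5.00 ± 0.63, and Serpinb3d was at least 9.97-fold higher.

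The IL-36 cytokine genes, which signal between keratinocytes and leukocytes, formed a run of 4 with their receptor antagonist. Il1f8, which encodes IL-36 beta, lay between 9.15 and 12.41 (median 10.06) in sham and between 12.94 and 13.77 (median 13.30) in HDM mice and rose by 2.86 ± 0.35 (adjusted p = 6.75e-07). Il1f6 (IL-36 alpha) differed by 3.78 ± 0.60, Il1f9 (IL-36 gamma) by 2.73 ± 0.45 and the antagonist Il1f5 by 2.36 ± 0.32 (adjusted p = 3.92e-06). The sham ranges of Il1f9 and Il1f5 reached into the HDM range only through sham mouse 1 or 2, and without these 2 mice the 4 differences were 3.43, 4.61, 3.42 and 2.95. Krt14, Krt16, Krt17 and Krt42 made a run of keratins on chromosome 11. Krt16, a stress keratin, differed by 4.05 ± 0.55 and basal Krt14 by 1.12 ± 0.12, from between 17.98 and 19.09 (median 18.54) to between 19.52 and 19.83 (median 19.71), while the highest value in the whole table was 19.93. Krt42 was below background in all sham mice and above it in 2 of 8 HDM mice, so that no fold is given (adjusted p = 0.002).

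**Figure D3:**
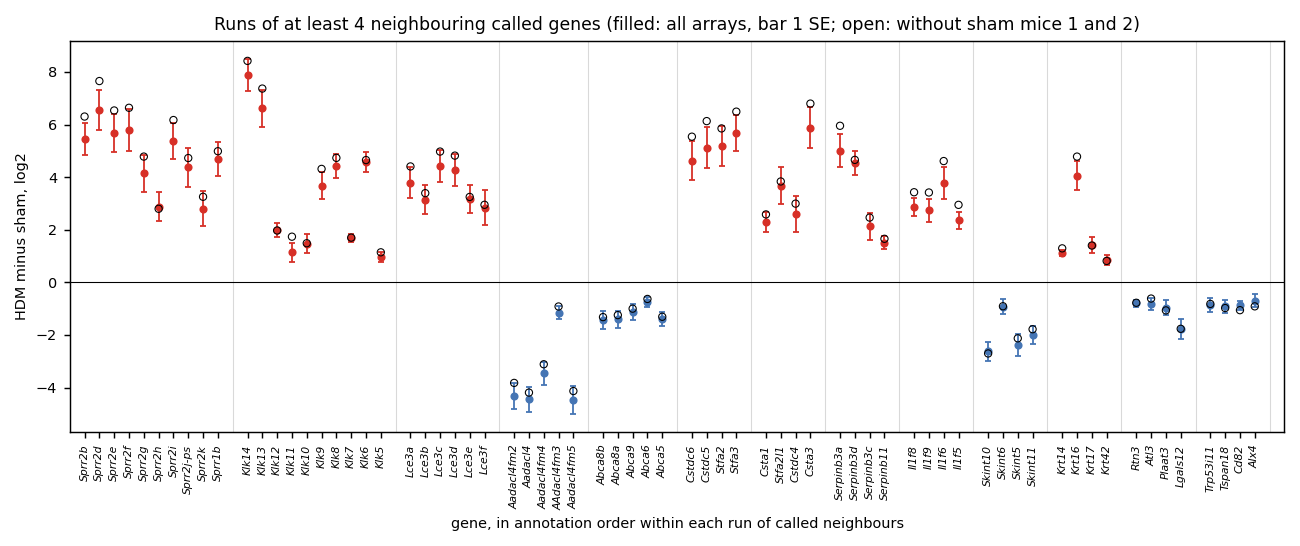
Points show the HDM minus sham difference (log2, vertical axis) of the 68 genes in 13 runs of neighbouring called genes, in annotation order, with bars of 1 SE; red runs are higher and blue runs lower, and open circles leave out sham mice 1 and 2. Differences reach 7.89 for Klk14 and -4.47 for Aadacl4fm5, and open circles lie near the filled ones or further from 0 in most runs of rises.

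Runs of falls held 22 genes. The arylacetamide deacetylase-like genes, serine esterases, fell together on chromosome 4, with Aadacl4fm2 between 11.57 and 14.81 (median 12.44) in sham and between 6.53 and 10.20 (median 8.46) in HDM mice, a difference of -4.31 ± 0.49, and Aadacl4 at -4.45 ± 0.46 (adjusted p = 4.54e-08). AAdacl4fm3 in the middle of the run had the smallest difference, -1.15 ± 0.24. The lipid transporter genes Abca8b, Abca8a, Abca9, Abca6 and Abca5, neighbours on chromosome 11, differed by -1.42 to -0.75, and Abca5 alone had no overlap. Abca5 lay between 7.99 and 9.03 (median 8.48) in sham and between 6.44 and 7.73 (median 7.12) in HDM mice. Of 30 measured ABC transporters of the list, 2 rose and 11 fell (4 and 8), with a median of -0.31. Abcd2, a peroxisomal fatty acid transporter, differed by -1.54 ± 0.26 (adjusted p = 1.02e-04), and the drug exporter Abcg2 rose by 0.77 ± 0.24 (adjusted p = 0.0243), as did Abcc10 (0.68 ± 0.22), whose call was lost when the back skin arrays were fitted alone.

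Skint genes, which are expressed in epidermis, fell in a run on chromosome 4. Skint10 lay between 6.64 and 8.51 (median 7.54) in sham and between 3.93 and 6.26 (median 4.97) in HDM mice and fell by 2.62 ± 0.38 (adjusted p = 7.74e-06), and Skint5 and Skint11 differed by -2.37 ± 0.41 and -2.01 ± 0.35, all 3 without overlap. Skint6 differed by -0.92 ± 0.29 (floored difference -0.55), a call lost without sham mice 1 and 2 (-0.91 with adjusted p = 0.0565). Of 23 measured genes of Skint and epidermal T cells, 1 rose and 8 fell (2 and 6), and the granzyme gene Gzmb rose by 1.43 ± 0.49 (adjusted p = 0.0474, floored difference 0.45), above background on 1 of 8 sham and 4 of 8 HDM arrays. The last 2 runs held Rtn3, Atl3, Plaat3 and Lgals12 on chromosome 19 and Trp53i11, Tspan18, Cd82 and Alx4 on chromosome 2. Rtn3, a reticulon of the endoplasmic reticulum, lay between 15.37 and 15.66 (median 15.52) in sham and between 14.45 and 14.90 (median 14.79) in HDM mice, and fell by 0.80 ± 0.14. Lgals12, a galectin of fat cells, differed by -1.79 ± 0.37 (adjusted p = 0.00108) and Plaat3 by -0.96 ± 0.29. Atl3 (-0.82 ± 0.21) and Trp53i11 (-0.85 ± 0.26) were not called without sham mice 1 and 2 (-0.62 with adjusted p = 0.0524 and -0.82 with adjusted p = 0.0572). The tetraspanins Cd82 and Tspan18 differed by -0.88 ± 0.17 and -0.90 ± 0.24 (for Tspan18, floored difference -0.56), while Alx4 was above background on 1 sham array only and was not called with equal array medians (adjusted p = 0.095).

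Genes that hold keratinocytes together and to the basement membrane were called in part. Of 15 measured genes of hemidesmosome and basal adhesion, 3 rose and 1 fell (2 and 0), and of 18 desmosome genes, 4 rose and 0 fell (3 and 2). Itgb6, an integrin subunit of wounded epithelium, lay between 8.73 and 10.07 (median 9.40) in sham and between 10.09 and 10.89 (median 10.65) in HDM mice and rose by 1.16 ± 0.32 (adjusted p = 0.0113). Dsg3, the basal desmoglein, lay between 14.19 and 15.05 (median 14.52) and between 15.30 and 16.08 (median 15.43), with no overlap, and rose by 0.97 ± 0.16 (adjusted p = 5.72e-05). Pkp3 (0.78 ± 0.22) rose and Dst (-0.80 ± 0.27) fell with all mice and neither was called without sham mice 1 and 2 (0.46 with adjusted p = 0.113 and -0.60 with adjusted p = 0.145). Of 21 tight junction genes, 2 rose and 3 fell (1 and 4). Cldn17 was below background in all sham mice and above it in 6 of 8 HDM mice, at least 1.91-fold higher, while Cgn, a junction scaffold, differed by -1.41 ± 0.39 (adjusted p = 0.0124) and Cldn3 by -0.95 ± 0.25 (adjusted p = 0.00899). F11r rose by 0.58 ± 0.17, a call lost without sham mice 1 and 2 (0.46 with adjusted p = 0.0824).

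Late differentiation enzymes rose where they changed. Of 20 measured genes of deimination, transglutamination and filaggrin processing, 5 rose and 0 fell (5 and 0), with a median of 0.093 that was -0.26 without sham mice 1 and 2. Casp14, a caspase of cornification, lay between 10.86 and 13.70 (median 11.96) in sham and between 14.12 and 15.00 (median 14.62) in HDM mice and rose by 2.57 ± 0.44 (adjusted p = 9.50e-05). Tgm5, a transglutaminase, rose by 1.44 ± 0.35 (adjusted p = 0.00437) and by 2.01 without these mice. Of 32 transcription factors of epidermis, 5 rose and 4 fell (4 and 7), so that falls outnumbered rises only without the 2 mice. Ehf, an ETS factor, lay between 11.65 and 13.72 (median 12.12) and between 13.47 and 14.78 (median 14) and rose by 1.68 ± 0.28 (adjusted p = 8.00e-05). Elf3 was above background on 1 HDM array only and was not called without the 2 mice (adjusted p = 0.0672). Gata6, a factor of sebaceous ducts, lay between 5.73 and 6.84 (median 6.42) and between 3.89 and 5.28 (median 4.72) and fell by 1.63 ± 0.21 (adjusted p = 1.21e-06, floored difference -1.39), and Nfix differed by -1.23 ± 0.27 (adjusted p = 0.00149).

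The Ly6 and uPAR proteins share a 3-fingered fold, and the secreted members Slurp1 and Slurp2 are made by keratinocytes. Of 29 measured genes, 6 rose and 3 fell (7 and 4). Slurp1 lay between 7.42 and 9.49 (median 8.12) in sham and between 3.95 and 7.02 (median 5.73) in HDM mice and fell by 2.58 ± 0.41 (adjusted p = 3.80e-05), and Slurp2 differed by -1.82 ± 0.35 (adjusted p = 3.86e-04). The urokinase receptor gene Plaur lay between 4.03 and 5.93 (median 4.95) and between 5.68 and 8.62 (median 7.07), with 5 of 8 sham arrays above background, and rose by 2.31 ± 0.60 (adjusted p = 0.00763). Psca differed by 1.54 ± 0.34 (adjusted p = 0.00181, floored difference 1.17). Of 30 mucins and O-glycosylation enzymes, 2 rose and 2 fell (2 and 3), with the transferases Galnt6 (1.43 ± 0.33) and Galnt3 (1.32 ± 0.38) higher and Muc15 (-1.21 ± 0.22) and the sialyltransferase St3gal1 (-0.92 ± 0.22) lower.

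Many lipid enzymes fell. Elongases and desaturases lengthen and unsaturate fatty acids for sebum, fat and the epidermal barrier. The list of these genes also held other lipid enzymes, such as Acacb and Me1. Of its 24 measured genes, 0 rose and 12 fell (1 and 12), with a median of -0.84 and -0.59 without sham mice 1 and 2. Elovl6 lay between 14.64 and 16.30 (median 15.41) in sham and between 11.33 and 12.74 (median 12.04) in HDM mice and fell by 3.40 ± 0.53 (adjusted p = 2.54e-05). Elovl3, a sebaceous and brown fat elongase, lay between 15.07 and 17.25 (median 15.53) and between 9.88 and 13.77 (median 12.49) and fell by 3.79 ± 0.47 (adjusted p = 8.11e-07). The groups did not overlap for either gene. The remaining 10 falls, named for completeness after their values were seen, were Elovl5 (-2.67 ± 0.29), Acacb (-2.66 ± 0.41), Scd3 (-2.28 ± 0.53), Hacd2 (-2.08 ± 0.29), Scd1 (-1.68 ± 0.18), Scd4 (below background in all HDM mice, at least 1.15-fold lower), Tecr (-1.27 ± 0.24), Elovl4 (-1.23 ± 0.19), Hsd17b12 (-0.87 ± 0.20) and Me1 (-0.86 ± 0.23). Without sham mouse 5 the bound for Scd4 was 0.998, so that it gave no fold. The 5 sebocyte markers used to check cell types, 4 of which fell, had a summed level of 15.1 to 17.3 in sham and 10.2 to 13.8 in HDM mice as log2 of the summed linear values. Elovl3 and Scd3 are among these markers and also among the 12 falls, so the sum is no separate measure of sebocytes. The part of sebocytes in these falls was not tested.

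Genes of lipid breakdown were called as well. Of 27 genes of fatty acid oxidation and PPAR targets, 1 rose and 7 fell (1 and 8). Acox2, a peroxisomal oxidase, lay between 10.47 and 11.86 (median 10.90) in sham and between 5.96 and 8.74 (median 7.59) in HDM mice and fell by 3.57 ± 0.44 (adjusted p = 8.74e-07), the receptor Pparg differed by -1.73 ± 0.36 (adjusted p = 0.00105), and Acadl, a mitochondrial acyl-CoA dehydrogenase, rose by 0.57 ± 0.15 (adjusted p = 0.00899). Of 23 epidermal lipases and phospholipases, 3 rose and 8 fell (4 and 7). The cytosolic phospholipase Pla2g4e lay between 7.81 and 10.34 (median 8.47) and between 11.89 and 12.77 (median 12.32) and rose by 3.60 ± 0.41 (adjusted p = 2.37e-07), while Pla2g4d was below background in all sham mice and above it in 3 of 8 HDM mice, so that no fold is given (adjusted p = 0.00658). Plb1, a phospholipase B, lay between 8.21 and 12.12 (median 11.60) and between 6.30 and 8.67 (median 7.14) and fell by 3.55 ± 0.49 (adjusted p = 5.15e-06). Without sham mice 1 and 2 its difference was -4.32. Pnpla5 lay between 9.02 and 10.59 (median 9.80) and between 5.10 and 7.63 (median 6.75) and fell by 3.19 ± 0.37 (adjusted p = 2.28e-07).

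White adipocyte genes had the highest share of calls among the 57 lists. Of 21 measured genes, 0 rose and 16 fell (0 and 16), with a median of -1.31 and -1.27 without sham mice 1 and 2. Their mean level was 9.71 to 10.4 in HDM mice and 10.9 to 12 in sham mice, so that every HDM mouse was below every sham mouse, low-hair or not. The summed level of the 4 adipocyte markers, of which 3 fell, was 13 to 14.6 in sham mice and 12 to 13.3 in HDM mice. The 3 that fell, Adipoq, Lep and Plin1, are also in this list, so the sum is no separate measure of fat cells. The part of fat cell number in these values was not tested. Nnat, which encodes neuronatin, lay between 5.83 and 9.71 (median 8.79) in sham mice and between 3.55 and 5.05 (median 4.67) in HDM mice, where 1 of 8 arrays was above background, and fell by 4.16 ± 0.37 (adjusted p = 1.55e-09, floored difference -3.77). Pck1, which makes glycerol precursors in fat, lay between 9.29 and 11.63 (median 10.61) and between 6.67 and 9.25 (median 7.79) and fell by 2.85 ± 0.31 (adjusted p = 7.88e-08). The fat hormones Adipoq (-1.73 ± 0.34) and Lep (-1.73 ± 0.39), the droplet proteins Plin1 (-1.61 ± 0.25), Plin4 (-1.92 ± 0.34) and Cidea (-1.85 ± 0.36), and the fatty acid transporter Cd36 (-2.19 ± 0.35) were also lower, as were Acvr1c (-1.96 ± 0.36), Pparg, Gpam (-1.31 ± 0.33), Lpl (-1.27 ± 0.22), Car3 (-1.17 ± 0.33), Gpd1 (-1.06 ± 0.32), Pnpla2 (-1.01 ± 0.17) and Lipe (-0.88 ± 0.14), all named for completeness. How deep each punch reached into the fat layer is not given in the labels.

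Genes of glucose use and of the response to low oxygen rose where they were called with all mice. Of 24 measured genes of glycolysis and lactate, 7 rose and 0 fell (8 and 2), and of 19 hypoxia targets, 5 rose and 0 fell (7 and 0). Without sham mice 1 and 2 some glycolysis genes were also called lower, as the counts in parentheses show. Slc2a1, the glucose transporter of epidermis, lay between 14.27 and 17.14 (median 14.53) in sham and between 16.42 and 17.21 (median 16.81) in HDM mice. The groups overlapped through sham mouse 1 or 2, and the difference was 1.76 ± 0.34 (adjusted p = 5.20e-04) with all mice and 2.34 without them. Pfkfb4, which makes an activator of glycolysis, rose by 1.61 ± 0.28 (adjusted p = 1.04e-04). The other 5 rises were Tpi1 (1.27 ± 0.28), Pgk1 (1.24 ± 0.26), Pkm (1.06 ± 0.24), Pfkl (0.84 ± 0.28) and Ldha (0.74 ± 0.23), named for completeness. Stc2, a secreted stanniocalcin, rose by 1.33 ± 0.25 (adjusted p = 3.80e-04), and Vegfa, the angiogenic growth factor, lay between 7.95 and 10.14 (median 8.54) and between 9.81 and 10.28 (median 9.96) and rose by 1.17 ± 0.26 (adjusted p = 0.00202).

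Redox genes divided by enzyme. Cells dispose of peroxides with glutathione peroxidases, peroxiredoxins and catalase, and the factor NRF2 drives many of the genes. Of 31 measured genes, 9 rose and 5 fell (9 and 3). Slc7a11, the cystine importer, lay between 7.37 and 10.59 (median 9.36) in sham and between 11.24 and 13.15 (median 12.50) in HDM mice and rose by 3.07 ± 0.67 (adjusted p = 0.00175). Gpx2, an epithelial glutathione peroxidase, lay between 5.92 and 8.06 (median 7.84) and between 9.35 and 11.46 (median 10.57) and rose by 3.01 ± 0.35 (adjusted p = 2.42e-07). Gpx3, the secreted peroxidase, lay between 14.13 and 15.70 (median 14.32) and between 12.20 and 13.42 (median 12.90) and fell by 1.66 ± 0.25 (adjusted p = 1.93e-05). None of the 3 had overlapping groups. Catalase, Cat, fell by 1.23 ± 0.36, a call lost without sham mice 1 and 2 (-1.07 with adjusted p = 0.0624). Nfe2l2, which encodes NRF2, rose by 0.55 ± 0.18 (adjusted p = 0.0413), a call lost with a trended and robust prior.

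Detoxification genes also split. Of 24 glutathione transferases, 4 rose and 4 fell (3 and 4), or 4 and 3 with equal array medians, among them Gsto1, which lay between 7.85 and 8.86 (median 8.45) in sham and between 9.75 and 10.93 (median 10.41) in HDM mice and rose by 1.97 ± 0.26 (adjusted p = 3.11e-06), Gsta4 (1.78 ± 0.40), Gstm1 (-1.41 ± 0.34) and Gstz1 (-1.50 ± 0.25). Of 11 genes of the aryl hydrocarbon receptor, which senses planar ligands, 1 rose and 3 fell (1 and 3). Its target Cyp1a1 lay between 5.22 and 6.84 (median 6.49) in sham mice and was above background in 2 of 8 HDM mice, and it fell by 1.80 ± 0.38 (adjusted p = 0.0013). Taken from background upward, the difference was -1.31. Of 26 genes of steroid and vitamin D metabolism, 3 rose and 5 fell (2 and 5). Hsd3b6, a steroid dehydrogenase, lay between 10.78 and 12.52 (median 11.88) and between 4.80 and 9.16 (median 7.34) and fell by 4.49 ± 0.60 (adjusted p = 2.76e-06), and Cyp17a1 differed by -2.62 ± 0.42 (adjusted p = 3.92e-05). Hsd17b2, which inactivates sex steroids, lay between 6.87 and 7.80 (median 7.46) and between 8.34 and 9.79 (median 9.20) and rose by 1.68 ± 0.22 (adjusted p = 1.84e-06), and the cholesterol sulphotransferase Sult2b1 rose by 0.97 ± 0.23 (adjusted p = 0.00358). Of 99 measured cytochrome P450 genes, 5 rose and 17 fell (3 and 13).

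Transporters of ions, water and amino acids were divided as well. Of 22 carbonic anhydrases and aquaporins, 5 rose and 4 fell (5 and 6). Car2 lay between 6.92 and 9.34 (median 8.58) in sham and between 10.52 and 11.48 (median 10.90) in HDM mice and rose by 2.54 ± 0.58 (adjusted p = 0.0026), Car4 rose by 1.73 ± 0.39, the glycerol channel Aqp7 of fat cells fell by 2.23 ± 0.28 (adjusted p = 8.33e-07), and mitochondrial Car5b fell by 1.57 ± 0.31. Of 30 sodium, chloride and calcium transport genes, 3 rose and 6 fell (3 and 6), and 5 and 3 with equal array medians. Slc26a9, an anion channel, rose by 1.27 ± 0.35 (adjusted p = 0.0118) and the sodium channel subunit Scnn1b by 0.81 ± 0.18, while Slc26a7 (-2.50 ± 0.47, floored difference -1.99) and Clca3a2 (-2.07 ± 0.43) were lower. Of 27 genes of amino acid transport and serine synthesis, 3 rose and 6 fell (5 and 7), with Shmt2 (1.01 ± 0.28) higher beside Slc7a11, and Slc6a9 (-1.41 ± 0.39) and Slc1a5 (-1.37 ± 0.23) lower. Of 11 polyamine genes, 2 rose and 1 fell (3 and 1). The acetyltransferase Sat1, which starts polyamine breakdown, lay between 12.13 and 13.08 (median 12.51) and between 13.81 and 14.57 (median 14.09) and rose by 1.64 ± 0.24 (adjusted p = 1.48e-05), and the oxidase Smox rose by 1.29 ± 0.41 (adjusted p = 0.0307), whereas the synthase Sms fell by 0.71 ± 0.22, a call lost without sham mice 1 and 2 (-0.65 with adjusted p = 0.0753). Of 27 genes of metal binding and iron, 3 rose and 0 fell (4 and 1), with Hpx, the haem-binding hemopexin, at least 2.74-fold higher, a bound that was 1.6-fold without HDM mouse 5, and Steap1 rising by 1.59 ± 0.46, a call lost without the 2 mice (1.37 with adjusted p = 0.0684).

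Stress response genes were counted next. Of 17 heat shock genes, 1 rose and 0 fell (1 and 1), and Hspe1, a mitochondrial chaperonin, rose by 0.50 ± 0.16 (adjusted p = 0.0291). Of 24 genes of the integrated stress and unfolded protein responses, 2 rose and 4 fell (4 and 1), and 4 and 1 with equal medians, so that the balance turned with both choices. Creld2 (0.62 ± 0.19) and Dnajb9 (0.54 ± 0.15), chaperones of the endoplasmic reticulum, were higher. Creb3l1 (-1.0 ± 0.28) and Atf5 (-0.43 ± 0.14) were lower with all mice and not called without sham mice 1 and 2 (-0.82 with adjusted p = 0.0666 and -0.39 with adjusted p = 0.106).

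Genes of insulin-like growth factor signalling and of the Wnt pathway were called in 1 direction with the values as deposited. Of 16 measured genes of the first group, 0 rose and 10 fell (0 and 7), or 1 and 10 with equal array medians. The median was -0.80. Igfbp5, a secreted binding protein, lay between 12.41 and 15.05 (median 13.88) in sham and between 10.46 and 12.26 (median 11.54) in HDM mice and fell by 2.23 ± 0.34 (adjusted p = 1.76e-05), and Irs1, the receptor's docking protein, lay between 9.01 and 10.05 (median 9.56) and between 7.13 and 8.58 (median 7.51) and fell by 1.79 ± 0.41 (adjusted p = 0.00269). Both were without overlap. The ligands Igf2 (-1.67 ± 0.42) and Igf1 (-0.89 ± 0.26), the binding proteins Igfbp3 (-1.77 ± 0.36), Igfbp6 (-1.36 ± 0.34), Igfbp2 (-0.90 ± 0.27) and Igfbp4 (-0.78 ± 0.15), the receptor Insr (-0.66 ± 0.19) and Irs2 (-0.81 ± 0.26) were the other falls, named for completeness. Igf1, Igfbp2 and Insr were not called without sham mice 1 and 2 (-0.58 with adjusted p = 0.111, -0.74 with adjusted p = 0.0805 and -0.57 with adjusted p = 0.0545). Of 42 Wnt genes, 0 rose and 10 fell (0 and 10), or 0 and 7 with equal array medians. The median was -0.35. Wnt3, a ligand of epidermis and hair, lay between 7.92 and 8.85 (median 8.31) and between 4.74 and 6.71 (median 5.86) and fell by 2.50 ± 0.46 (adjusted p = 2.85e-04), and Lrp4 (-1.66 ± 0.51) was not called without sham mice 1 and 2.

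Of 36 BMP and TGF-beta genes, 2 rose and 10 fell (1 and 13). The BMP antagonist Chrdl1 lay between 9.10 and 10.68 (median 10.04) in sham and between 6.18 and 8.87 (median 7.66) in HDM mice and fell by 2.23 ± 0.27 (adjusted p = 6.75e-07), the ligand Bmp3 fell by 1.74 ± 0.27 (adjusted p = 2.21e-05), the target Id1 rose by 0.51 ± 0.17 (adjusted p = 0.0339), and the protease Bmp1 rose by 0.58 ± 0.19, a call lost without the 2 mice (0.53 with adjusted p = 0.0934). Of 25 FGF genes, 2 rose and 7 fell (2 and 8), with a median of -0.63. Fgfrl1, a decoy-type receptor, lay between 8.57 and 9.45 (median 9.14) and between 7.25 and 8.49 (median 7.89) and fell by 1.26 ± 0.23 (adjusted p = 2.88e-04), Fgf11 was below background on all HDM arrays and at least 1.27-fold lower, while Dusp6, a feedback phosphatase of the pathway, rose by 0.89 ± 0.23 (adjusted p = 0.00739) and Fgfbp1 by 1.15 ± 0.39. Of 21 Notch genes, 1 rose and 3 fell (1 and 3), and 3 and 2 with equal medians. The ligand Jag1 rose by 0.87 ± 0.17 (adjusted p = 5.36e-04), and the ligand Dll1 (-0.69 ± 0.20) and the fringe enzyme Mfng (-1.45 ± 0.28) were lower, Dll1 not with equal medians (adjusted p = 0.0515). Of 12 Hedgehog genes, 0 rose and 2 fell (0 and 2), the co-receptor Cdon (-1.21 ± 0.35) and the antagonist Hhip (-1.03 ± 0.33). Cdon was not called without sham mice 1 and 2 (-1.07 with adjusted p = 0.0536), and Hhip was not called with equal medians (adjusted p = 0.0524). Of 19 VEGF and angiopoietin genes, 2 rose and 6 fell (2 and 5), with the receptor Flt1 at 1.08 ± 0.33 beside Vegfa, and Angptl7 at -1.85 ± 0.42 and Angptl1 at -1.38 ± 0.28.

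Axon guidance and nerve genes were mostly lower where called. Semaphorins and netrins steer axons and also act on vessels and epithelium. Of 31 measured genes, 2 rose and 10 fell (2 and 8). Sema3d lay between 11.13 and 12.57 (median 11.88) in sham and between 6.80 and 8.25 (median 7.71) in HDM mice, with no overlap, and fell by 4.18 ± 0.71 (adjusted p = 9.84e-05). Sema3e lay between 12.02 and 12.80 (median 12.34) and between 10.09 and 11.23 (median 10.73) and fell by 1.6 ± 0.21 (adjusted p = 2.15e-06). Sema4d (1.19 ± 0.37) and the ephrin receptor Epha2 (0.93 ± 0.21) rose. Of 11 nerve and Schwann cell genes, 0 rose and 6 fell (0 and 4), among them the cadherin Cdh19 (-1.46 ± 0.38, adjusted p = 0.00808) and the myelin gene Mbp (-1.40 ± 0.42), which was not called without sham mice 1 and 2 (-1.35 with adjusted p = 0.0525). Their mean level was 6.99 to 7.21 in HDM and 7.43 to 8.22 in sham mice, and its part in the axon guidance values was not tested.

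In the dermis, of 26 proteoglycan genes, 3 rose and 7 fell (2 and 6). Fmod, a collagen-binding proteoglycan, lay between 6.35 and 7.96 (median 7.01) in sham and between 4.30 and 6.13 (median 5.07) in HDM mice and fell by 1.96 ± 0.34 (adjusted p = 1.29e-04), and Spock2 differed by -1.66 ± 0.50 (floored difference -1.31). Srgn, the granule proteoglycan of leukocytes, lay between 10.31 and 12.06 (median 10.74) and between 12.44 and 13.95 (median 13.46) and rose by 2.33 ± 0.60 (adjusted p = 0.00752), and Gpc1 rose by 0.77 ± 0.16. Of 17 elastic fibre genes, 0 rose and 3 fell (0 and 4), Mfap4 lay between 12.86 and 14.81 (median 13.49) and between 11.34 and 12.20 (median 11.68) and fell by 1.93 ± 0.29 (adjusted p = 1.37e-05), and elastin, Eln, fell by 1.23 ± 0.31 (adjusted p = 0.00619). Of 15 hyaluronan genes, 1 rose and 0 fell (3 and 0), the depolymerising Cemip by 1.73 ± 0.49. Of 19 fibroblast genes, 1 rose and 7 fell (1 and 7), with Pi16, a marker of fibroblasts around vessels, between 9.96 and 10.82 (median 10.46) in sham and between 7.89 and 9.21 (median 8.59) in HDM mice, a difference of -1.89 ± 0.22 (adjusted p = 3.71e-07), and the actin-severing Gsn at -1.78 ± 0.32. Of 42 measured collagen chains, 0 rose and 0 fell (1 and 0) by limma, and 4 had an unadjusted p under 0.05.

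Of 17 smooth muscle and pericyte genes, 1 rose and 6 fell (1 and 6). Myh11, the smooth muscle myosin, lay between 10.98 and 12.32 (median 11.90) in sham and between 9.33 and 10.31 (median 9.72) in HDM mice and fell by 1.99 ± 0.25 (adjusted p = 8.54e-07), Synpo2 differed by -1.34 ± 0.29, and the pericyte gene Rgs5 rose by 0.60 ± 0.19 (adjusted p = 0.0302). Of 16 endothelial genes, 3 rose and 1 fell (4 and 1). The lymphatic gene Pdpn, which keratinocytes also express, differed by 1.88 ± 0.39 and the selectin Selp by 1.13 ± 0.36, while the VEGF receptor Kdr fell by 1.05 ± 0.25 (adjusted p = 0.00379). Of 25 ADAM and ADAMTS proteases, 4 rose and 0 fell (3 and 1), with Adamts15 at 0.90 ± 0.28 and Adamts20 at 1.13 ± 0.32, the last not called without sham mice 1 and 2 (0.57 with adjusted p = 0.111). Of 25 genes of dermal papilla and dermal sheath, 0 rose and 8 fell (0 and 8), with Abi3bp at -1.62 ± 0.29 and the netrin Ntn1 at -1.59 ± 0.25. Of 13 melanocyte genes, 0 rose and 2 fell (0 and 1). Mitf, the master factor, fell by 1.01 ± 0.27 (adjusted p = 0.008) and the receptor Kit differed by -0.67 ± 0.21, the latter not called without the 2 mice (-0.58 with adjusted p = 0.0937). Of 3 erythroid genes measured, 0 rose and 0 fell (0 and 1) by limma, and 1 had an unadjusted p under 0.05.

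Lysosomal protease genes were called higher more often than lower. Of 22 cathepsins and lysosomal enzymes, 7 rose and 1 fell (7 and 1). Ctsl lay between 14.61 and 16.56 (median 15.93) in sham and between 16.90 and 17.57 (median 17.30) in HDM mice and rose by 1.6 ± 0.24 (adjusted p = 1.97e-05), and Ctsk rose by 1.33 ± 0.29 (adjusted p = 0.0016). Naaa, an amidase of lipid mediators, lay between 11.23 and 13.62 (median 12.13) and between 10.34 and 11.02 (median 10.89) and fell by 1.43 ± 0.27 (adjusted p = 3.45e-04). Of 25 genes of coagulation and fibrinolysis, 3 rose and 2 fell (4 and 1), with urokinase, Plau, up by 1.03 ± 0.27 beside its receptor Plaur. Tissue factor, F3, fell by 0.94 ± 0.30, a call lost with equal medians (adjusted p = 0.053), and Serpinb2 fell by 0.82 ± 0.27, a call lost without the 2 mice (-0.48 with adjusted p = 0.225). Of 21 complement genes, 1 rose and 3 fell (1 and 3), or 2 and 2 with equal array medians. Serping1, the C1 inhibitor, differed by -0.94 ± 0.18 (adjusted p = 3.60e-04) and the membrane inhibitor Cd59a by -0.72 ± 0.19.

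Genes of inflammatory signalling outside the cytokines were called in 12% to 31.2% of members per list, against 15.3% of all genes. Of 25 NF-kB regulators, 3 rose and 0 fell (5 and 0). Tnfaip2 lay between 6.57 and 8.56 (median 7.64) in sham and between 9.13 and 10.26 (median 9.81) in HDM mice and rose by 2.12 ± 0.54 (adjusted p = 0.00662). Zc3h12a, an RNase that limits cytokine messages, lay between 8.49 and 13.07 (median 10.26) and between 11.88 and 12.87 (median 12.34), and rose by 1.80 ± 0.47 (adjusted p = 0.0079), or by 2.57 without sham mice 1 and 2. Of 28 genes of inflammasomes and cell death, 3 rose and 2 fell (5 and 2), a count of rises that reached 8 with equal array medians and 11 with the hair list mean as a covariate, with Casp8 (0.98 ± 0.19) and Ripk3 (1.01 ± 0.33) higher and Nlrp10 (-1.16 ± 0.28) and Bcl2 (-1.10 ± 0.25) lower. Of 26 immediate early and AP-1 genes, 3 rose and 3 fell (3 and 1), or 5 and 1 with equal array medians. Ier3 rose by 2.01 ± 0.37 (adjusted p = 2.44e-04), Ier5 by 0.64 ± 0.22, and Nr4a2 fell by 1.12 ± 0.29. Egr3 fell by 0.82 ± 0.27, a call lost without the 2 mice (-0.67 with adjusted p = 0.109). Of 16 leukocyte genes, 2 rose and 3 fell (2 and 2), or 3 and 3 with equal array medians. Cd8a was below background in all sham mice and at least 1.2-fold higher, S100a8 rose by 7.69 ± 0.79, and the Langerhans cell gene Cd207 (-1.89 ± 0.37, adjusted p = 4.94e-04) and the MHC class II gene H2-Ab1 (-1.80 ± 0.28, adjusted p = 2.59e-05) were lower. The summed level of the Langerhans and dendritic markers Cd207, H2-Ab1 and Cd209a was 11 to 13.3 in sham and 9.52 to 10.5 in HDM mice. That of the neutrophil markers S100a8, S100a9 and Cxcr2 was 9.22 to 14.8 and 18.3 to 19.6, and Ly6g was not measured. Cd207, H2-Ab1 and S100a8 are also in the leukocyte list, so the sums are no separate measure of cells. A punch does not show which cells the S100a8 and S100a9 RNA came from. The part of these cell types in the values above was not tested.

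**Figure D4:**
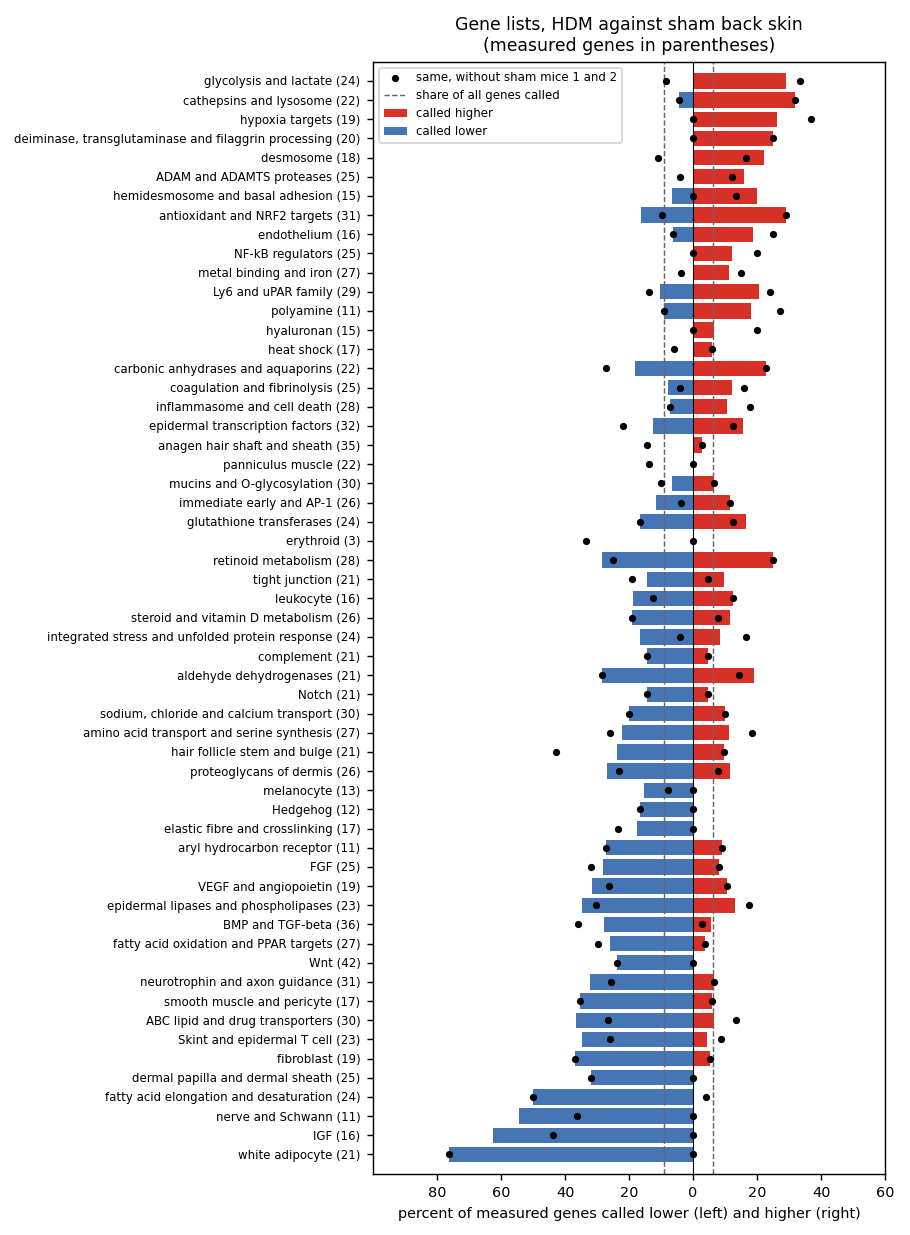
Bars give the percent of measured genes of each of 57 lists called higher (right, red) and lower (left, blue) in HDM back skin, with black points for the same shares without sham mice 1 and 2. Dashed lines mark the shares of all 19505 genes, 6.34% higher and 8.97% lower; the white adipocyte list has 16 of 21 genes lower and the glycolysis list 7 of 24 higher.

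Families grouped by symbol gave the following counts, to be read against 6.34% of all genes higher and 8.97% lower. Of 72 cytosolic ribosomal protein genes, 25 rose and 1 fell (18 and 1), with a median of 0.31, and of 76 mitochondrial ones, 11 rose and 0 fell (7 and 0). Of 84 histone genes, 15 rose and 0 fell (8 and 0), with a median of 0.38, and of 358 zinc finger genes named Zfp, 3 rose and 53 fell (3 and 39), with a median of -0.26. With equal array medians these counts were 36 and 1, 17 and 0, 28 and 0 and 7 and 37. Of 361 solute carriers, 18 rose and 47 fell (23 and 46), and of 55 serpins, 8 rose and 9 fell (10 and 8), against 33 and 39 and 12 and 8 with equal array medians, where rises outnumbered falls among serpins. Of 1091 olfactory receptor genes, which serve as a check because skin expresses few, 23 rose and 1 fell (12 and 1), and 106 and 0 with equal medians. Of 6972 rows below background on all 16 arrays, 105 were called higher (1.51%) and 28 lower (0.402%), against 475 (6.81%) and 6 (0.0861%) with equal medians. Their median difference was 0.056 and 0.18 under the 2 scalings.

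Among the genes whose calls changed with the 2 low-hair sham arrays were hair genes and some inflammatory genes. Of 35 measured genes of hair shaft and sheath, 1 rose and 0 fell (1 and 5), and the median moved from 0.48 to -0.84. Of 50 keratin-associated protein genes, 0 rose and 0 fell (0 and 12) by limma, or 1 and 0 with equal array medians, 2 had an unadjusted p under 0.05, and the median moved from 0.19 to -1.0. Of 22 genes of the skin muscle, 0 rose and 0 fell (0 and 3), 0 had an unadjusted p under 0.05, and the medians were -0.42 and -1.05. Of 21 genes of follicle stem cells, 2 rose and 5 fell (2 and 9). Among these Npnt, a basement membrane protein of the bulge, lay between 9.85 and 12 (median 10.77) in sham and between 7.68 and 8.73 (median 8.19) in HDM mice and fell by 2.64 ± 0.32 (adjusted p = 6.20e-07), Krt15 fell by 2.26 ± 0.53 (adjusted p = 0.00299), Krt17 rose by 1.43 ± 0.30 and the matrix protein Postn by 1.03 ± 0.21.

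Leaving the 2 arrays out added 233 rises and 357 falls and removed 265 and 500. Cxcl1, a neutrophil chemokine, was 7.53 and 7.77 in sham mice 1 and 2, between 3.12 and 4.56 in sham mice 3 to 8 and between 5.69 and 7.79 (median 6.38) in HDM mice. Both arrays thus lay within the HDM range, and the difference was 1.97 ± 0.69 (adjusted p = 0.0519, floored difference 1.29) with them and 2.94 (adjusted p = 0.00112) without. Of sham mice 3 to 8, 1 was above background for Cxcl1, and the floored difference without the 2 mice was 2.05. The prostaglandin synthase gene Ptgs2 was 9.12 and 8.42 in the 2 mice and between 4.92 and 5.86 in the other 6, and its difference went from 1.87 ± 0.66 to 2.67 (adjusted p = 0.00375). The protease inhibitor gene Timp1, the EGF receptor ligand Epgn and the peptide transporter Slc15a3 had the same order, with 7.59 and 7.33, 9.96 and 11.18 and 8.79 and 8.98 in the 2 mice against highest values of 5.87, 8.17 and 7.25 in the other 6. Their differences without the 2 mice were 2.48 (adjusted p = 0.0137), 2.42 (adjusted p = 0.00154) and 2.14 (adjusted p = 0.0128).

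Of the falls gained without the 2 arrays, the largest included hair keratin and keratin-associated genes. Krt84 was 5.69 and 6.64 in sham mice 1 and 2, between 9.40 and 13.35 in the other 6 and between 7.56 and 8.65 (median 8.19) in HDM mice, and its difference went from -1.47 ± 0.68 to -2.60 (adjusted p = 8.27e-04). Krt36 was 3.72 and 4.5 in the 2 mice and between 7.86 and 9.57 in the other 6, and its difference went from -1.31 ± 0.60 to -2.36 (adjusted p = 2.47e-04). Krtap20-2 and the predicted gene Gm11564 reached -2.50 (adjusted p = 0.0189) and -2.06 (adjusted p = 0.0295) without the 2 mice, although sham mouse 5 was also low for both, at 5.36 and 7.28. Cybrd1, a duodenal-type iron reductase, went from -1.22 ± 0.57 to -2.13 (adjusted p = 0.00179).

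Of the calls that needed the 2 arrays, the connexins Gjb2 and Gjb6 rose by 1.87 ± 0.61 (adjusted p = 0.034) and 2.23 ± 0.59. Gjb2 was 11.7, 12.7, 12.7 and 13 in sham mice 1, 2, 5 and 7 and 15.1 to 15.4 in sham mice 3, 4, 6 and 8, while HDM mice lay between 15.45 and 16.30 (median 15.65). Without sham mice 1 and 2 the differences were 1.30 (adjusted p = 0.167) and 1.78 (adjusted p = 0.0526). Mrgpra2b, a receptor gene of the Mas-related family, was below background in all sham mice and above it in 6 of 8 HDM mice, at least 2.9-fold higher, with adjusted p = 0.0628 without the 2 mice. The macrophage elastase Mmp12, the receptor Lrp4 and Clca3a1 differed by -2.04 ± 0.52, -1.66 ± 0.51 and -1.57 ± 0.42 with all mice. Without the 2 they kept the direction and missed the threshold (-1.51 with adjusted p = 0.0502, -1.39 with adjusted p = 0.0883 and -1.09 with adjusted p = 0.0702).

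**Figure D5:**
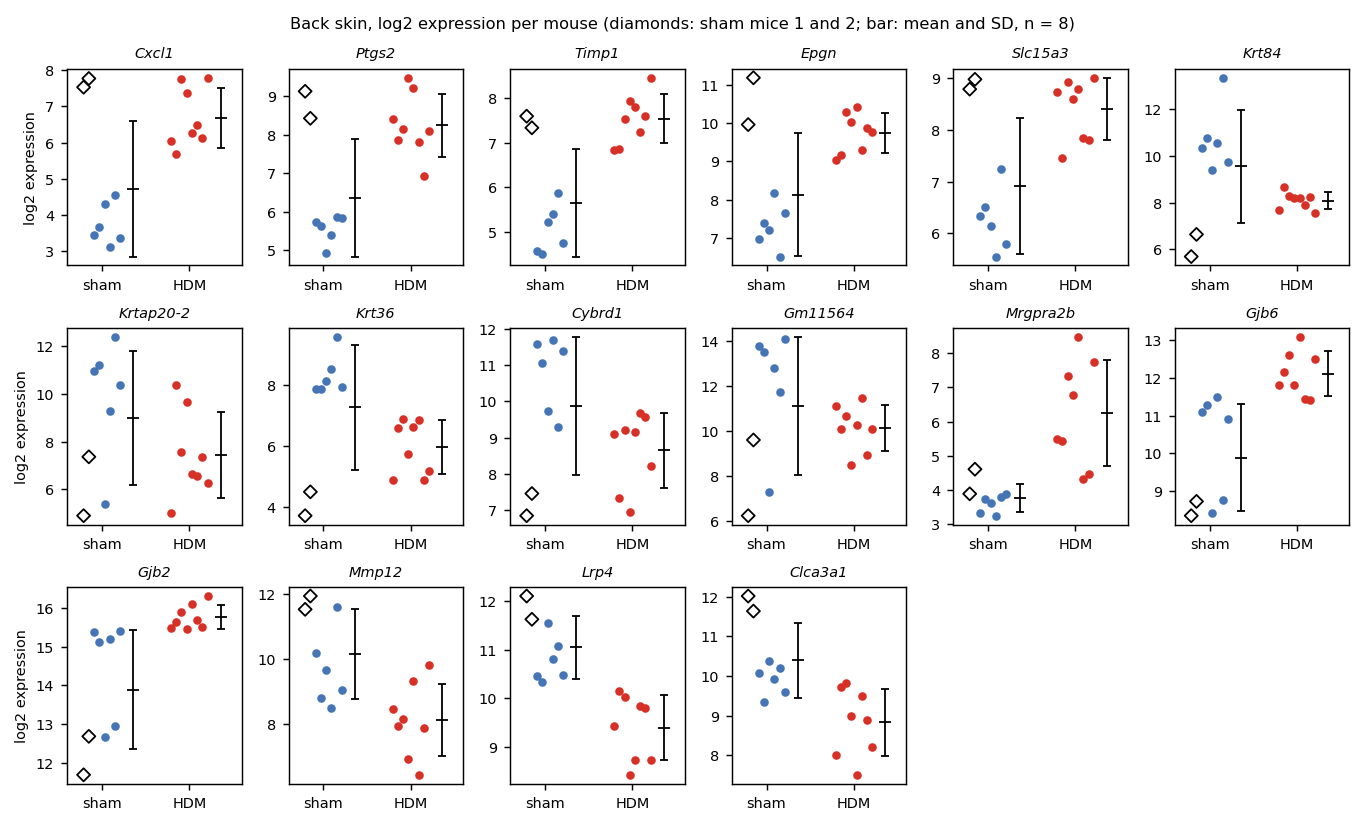
Each panel shows the log2 expression (vertical axis) of 1 gene in the sham and HDM back skin mice, with open diamonds for sham mice 1 and 2 and a bar for the mean and SD of all 8. For Cxcl1 the diamonds lie at 7.53 and 7.77 within the HDM range, and for Krt84 they lie at 5.69 and 6.64, below all HDM mice.

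A few genes went the other way in ear. Across the 22206 rows, 109 (0.491%) were called in opposite directions in the 2 sites with the difference itself called, 76 of them lower in back skin and 33 higher. Without sham mice 1 and 2 there were 86 such rows, 53 lower in back skin and 33 higher. With equal array medians 54 were lower and 64 higher. Among the falls in back skin, Cd209e, a lectin of dendritic cells, fell by 2.52 ± 0.41 (adjusted p = 5.29e-05) in back skin and was 3.13 ± 0.41 in ear, and the ear effect minus the back effect was 5.65 ± 0.58 (adjusted p = 2.55e-07). Ccl22, a chemokine that attracts T helper cells, lay between 8.79 and 12.02 (median 9.17) in sham and between 5.30 and 8.87 (median 7.19) in HDM back skin, and the effects differed by 5.63 ± 0.66 (adjusted p = 2.10e-06). The fall of Mmp12 in back skin was not called without sham mice 1 and 2. For this gene the effects were -2.04 ± 0.52 in back skin and 2.88 ± 0.52 in ear, a difference of 4.91 ± 0.74 (adjusted p = 8.24e-05). For Alpl, an alkaline phosphatase, they were -1.42 ± 0.49 and 2.36 ± 0.49, and the fall in back skin was not called without sham mice 1 and 2 (-1.19 with adjusted p = 0.138).

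Among the rises in back skin, Btc, the EGF receptor ligand betacellulin, lay between 6.83 and 7.96 (median 7.43) in sham and between 8.42 and 10.10 (median 9.29) in HDM mice, with no overlap, and rose by 1.86 ± 0.23 (adjusted p = 7.93e-07). In ear it was -0.70 ± 0.23, and the difference of effects was -2.56 ± 0.33 (adjusted p = 7.33e-06). Tll1, a procollagen protease, was 1.08 ± 0.31 in back skin and -1.35 ± 0.31 in ear, a difference of -2.43 ± 0.44 (adjusted p = 5.82e-04), and its rise in back skin was not called without the 2 mice (0.88 with adjusted p = 0.0748). Stc2 was 1.33 ± 0.25 and -1.01 ± 0.25, a difference of -2.34 ± 0.36 (adjusted p = 9.56e-05). Hsd17b2 was 1.68 ± 0.22 and -0.61 ± 0.22, a difference of -2.30 ± 0.31 (adjusted p = 2.00e-05).

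The HDM mice differed among themselves for a few genes. Over all called rows the median SD was 0.402 in sham and 0.366 in HDM mice, and 41.4% of called rows had the larger SD in HDM mice. The largest HDM SD belonged to Krt77, a type II keratin. It was 12.1 in HDM mouse 3, 9.83, 9.49 and 8.87 in mice 5, 6 and 4, and 5.8 to 4.39 in mice 7, 8, 1 and 2, against 16.75 to 18.27 in sham mice, and the difference was -9.93 ± 0.78. Cyp2g1, a cytochrome P450 gene, was highest in HDM mice 3, 6 and 5, at 8.83, 8.62 and 7.35, and between 3.89 and 5.58 in the other 5, against between 11.74 and 15.72 (median 14.11) in sham mice. Hpx was 11.6 in HDM mouse 5 and between 3.84 and 6.10 in the other 7. Retnlg, a resistin-like gene of neutrophils, was also highest in HDM mouse 5 at 10.5, and lay between 5.05 and 8.50 in the other 7, with a difference of 3.18 ± 0.95 (adjusted p = 0.0212, floored difference 2.57) and 1 of 8 sham arrays above background.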

How the data were processed

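RNA from 8 mm punches was hybridised to Affymetrix arrays, 8 mice in each of 4 groups. The authors deposited log2 values, and the submitters' processing notes name RMA and the Transcriptome Analysis Console. Versions, genome build and annotation were not given in the sources used here. The values run from 1.71 to 19.93, and whether a further rescaling was applied is unknown. Of 28846 rows, 6640 controls were left out and 22206 tested, and 19505 genes were named from the platform table. Background was each array's median over 5222 negative control rows. A gene below it in all mice of 1 group is given as at least N-fold, from the measured mean of the other group over that group raised to background.

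Group means were fitted with limma 3.58.1 in R 4.3.3 over all 32 arrays, so that ear arrays share the estimate of spread, with HDM minus sham back skin as the contrast. The test was run on simulated data beforehand. The number of arrays limits the precision. Named genes were the 10 strongest in each direction without overlap, up to 2 called genes per direction of each list, genes whose call depended on sham mice 1 and 2, genes opposite in ear, members of the 8 longest neighbour runs with all ties (13 runs), and the 4 called genes with the largest HDM SD. The comparison, lists and families were chosen with earlier results of these data known. Alternatives left out sham mice 1 and 2, each mouse in turn, ear arrays or dim rows, or changed the scaling, the prior, array weights, blocks or a hair covariate.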

Additional observations from a re-analysis of the deposited data

Results flagged for a closer look

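Over all genes named, each examined in both groups, 27 of 584 sets of 8 mice held a mouse outside the range that Dixon's test allows, and chance flags about 1 in 20 such sets. Sham mouse 1 was that mouse in 4 sets and sham mouse 2 in 2. Each value is the log2 level of that mouse, followed by the level of the mouse nearest to it. The levels given for the outlying mouse of Elf3, Mrgpra2b, Rdh16, Alx4 and Matn1 were below background, where a difference between mice has little meaning. In sham back skin, 1 mouse stood apart with the lowest level of Acacb (mouse 6, 7.07 against 7.94), Cyp1a1 (mouse 6, 5.22 against 6.24), Gpx2 (mouse 1, 5.92 against 7.29), Nnat (mouse 1, 5.83 against 8.18) and Sprr1b (mouse 7, 5.84 against 7.73). In sham back skin, 1 mouse stood apart with the highest level of Aldh1a1 (mouse 7, 9.93 against 8.63), Angptl1 (mouse 7, 9.14 against 8.22), Elf3 (mouse 3, 3.82 against 3.34), Gpx3 (mouse 1, 15.70 against 14.57), Mrgpra2b (mouse 2, 4.61 against 3.89), Rbp2 (mouse 1, 7.71 against 6.61) and Serpinb11 (mouse 2, 11.36 against 10.79). In HDM back skin, 1 mouse stood apart with the lowest level of Bcl2 (mouse 4, 8.48 against 9.08), Bmp1 (mouse 3, 9.27 against 9.73), Cemip (mouse 7, 7.23 against 8.17), Nfix (mouse 5, 15.31 against 15.71), Rdh16 (mouse 8, 3.66 against 4.65) and Tpi1 (mouse 3, 14.45 against 14.88). In HDM back skin, 1 mouse stood apart with the highest level of Acacb (mouse 6, 6.73 against 5.68), Adipoq (mouse 5, 12.60 against 11.68), Alx4 (mouse 3, 4.08 against 3.34), Cyp2b23 (mouse 3, 5.59 against 4.89), Gstz1 (mouse 5, 9.55 against 8.57), Hpx (mouse 5, 11.59 against 6.10), Matn1 (mouse 8, 3.71 against 2.86), Mfng (mouse 6, 7.54 against 6.46) and Oat (mouse 3, 11.87 against 11.29).

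The effect of HDM differed in direction between ear and back skin for 109 rows, of which 8 genes are named, by a test of the difference itself in the fit over all 32 arrays. Without sham mice 1 and 2 there were 86 such rows. The ear effect minus the back skin effect was Cd209e 5.65 ± 0.58 (adjusted p = 2.55e-07), Ccl22 5.63 ± 0.66 (adjusted p = 2.10e-06), Mmp12 4.91 ± 0.74 (adjusted p = 8.24e-05) and Alpl 3.79 ± 0.69 (adjusted p = 6.20e-04) where back skin was lower. It was Btc -2.56 ± 0.33 (adjusted p = 7.33e-06), Tll1 -2.43 ± 0.44 (adjusted p = 5.82e-04), Stc2 -2.34 ± 0.36 (adjusted p = 9.56e-05) and Hsd17b2 -2.30 ± 0.31 (adjusted p = 2.00e-05) where back skin was higher. These adjusted p-values are from limma, with 8 mice in each group.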

How the results depend on the processing

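The counts of 1372 higher and 1901 lower rows stayed within 1.5 times under every alternative except 2. With equal array medians 2433 rows were higher, and asking for a difference of at least 1 left 456 higher and 766 lower rows. Leaving out each mouse in turn gave 1123 to 1357 higher and 1576 to 1957 lower rows. The 13 runs of neighbouring genes became 21 with the back skin arrays fitted alone and 26 with the hair list mean as a covariate, and 12 to 19 under the other alternatives. The cause of these changes was not tested. Of 114 counts of rises or falls in the gene lists, 59 moved by over 1.5 times under at least 1 alternative, among them 7 of the 33 counts that were 5 or more. Rises among inflammasome and cell death genes ranged from 3 to 11, and those among metal binding and iron genes from 3 to 8. Deviations of same-numbered sham and HDM back skin mice from their group means had correlations from -0.135 to 0.137, with 3 of 8 over 0.1. For same-numbered back skin and ear arrays they ran from -0.113 to 0.040 in sham and from -0.084 to 0.140 in HDM mice. Differently numbered mice were not correlated for reference, so these checks cannot decide whether the numbers pair the mice. A fit with agent and mouse number as a random animal block gave 1374 higher and 1902 lower rows. A fit with the mouse number as a replicate block gave 1385 higher and 1883 lower rows, 14 runs and 114 rows opposite to ear. Of the genes named by the rule, 27 lost their call and 10 gained one without sham mice 1 and 2. The losses and gains were 11 and 4 with equal array medians, and 6 and 2 with the replicate block, and none of the named genes reversed. The 10 gains were fixed by the rule, which named those genes for being called only without the 2 mice. Some of the losses, such as Gjb2, Gjb6 and Mmp12, were chosen for the loss. All other named genes were called with all mice, so no gain was possible among them in any fit. The fit of back skin alone without sham mice 1 and 2 was chosen after seeing the data, and there 13 lost their call and 8 gained one. For genes below background in 1 group the signal allows a bound only.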

Other observations

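Immune and surface families gave counts that have not been described above, with the counts without sham mice 1 and 2 in parentheses. Of 36 measured CC and CXC chemokine genes, which steer leukocytes, 8 rose and 4 fell (13 and 2). Of 76 interleukin and interleukin receptor genes, 16 rose and 8 fell (20 and 8), and of 35 MHC genes, 1 rose and 9 fell (1 and 8). Of 19 calcium-binding S100 genes, 5 rose and 1 fell (3 and 1), and of 12 connexins, the proteins of gap junctions, 3 rose and 2 fell (1 and 3). Of 90 potassium channel genes, 1 rose and 6 fell (1 and 9), a balance that turned to 8 and 4 with equal array medians, and of 226 genes named Tmem, 14 rose and 26 fell (12 and 29), or 19 and 19 with equal array medians. Of all named genes 6.34% rose and 8.97% fell.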
